A study of Mus musculus with 43 samples.

Results

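Trim14, Trim21, Trim25, Trim26, Trim30a and Trim34a, 6 genes of the tripartite motif (TRIM) family, were followed across 9 immune cell types of the mouse 2 h after an injection of interferon alpha. The members were chosen with earlier results of these data known and were taken by symbol from the platform annotation of the array. The 6 genes stood among 19752 genes measured in all. Each member had 1 probe set, and that probe set carried no other symbol, so no choice between probe sets was needed. The series holds 43 arrays, 17 after interferon and 26 at baseline, in 18 groups made of 9 cell types in each condition.

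The interferon mice received 10000 U of interferon alpha under the skin 2 h before the cells were taken. The baseline mice, labelled SPF, carry no injection label, and no vehicle injection is named for them. All mice were C57BL/6 males aged 6 weeks, with no transgene or deleted gene in the labels. Cells were sorted as neutrophils (Ly6G+), macrophages, dendritic cells (CD11c+ Flt3+), NK and NKT cells, and CD4+, CD8+, gamma-delta and regulatory T cells (the last CD4+ CD25+). Macrophages came from the peritoneal cavity and the other types from spleen. The interferon groups held 2 arrays each, except 1 for macrophages, and the baseline groups held 3 each, except 2 for neutrophils. No label says whether arrays of a group came from separate mice, so the p-values measure the spread between these arrays, which may be technical.

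Defining markers were checked in the sorted types. Foxp3 was at 11.97 and 11.98 (log2 level, mean after interferon and at baseline) in regulatory T cells, Ncr1 at 13.38 and 13.42 in NK cells, Ly6g at 12.76 and 12.54 in neutrophils, and Flt3 at 11.30 and 11.54 in dendritic cells. Of the gamma-delta markers, Il23r (8.38 and 8.22) and Sox13 (7.93 and 8.29) were highest in gamma-delta T cells, but Maf (9.42 and 8.93) was higher in NKT cells (11.19 and 10.13) and regulatory T cells (10.43 and 9.81). The gamma-delta arrays also carried 7 B cell markers at a summed level of 11.33 to 13.31 after interferon, against 11.20 to 13.32 at baseline. They carried 6 dendritic cell markers at 11.49 to 12.71 after interferon, against 10.995 to 13.48 at baseline. In the NKT arrays the 6 dendritic cell markers were at 11.80 to 12.92 after interferon, against 11.30 to 13.15 at baseline. In the NK arrays these 6 were at 11.217 to 11.223 after interferon, against 11.68 to 12.17 at baseline, and 1 of the 6 was lowered. Of the 43 arrays, 41 were most similar to another array of their own cell type, and within a group the arrays correlated at 0.951 to 0.997. The labels leave the tissue of 4 baseline arrays in doubt, since blood is named as the source of CD8+ T cell arrays 1 and 2, and a spleen preparation is named for macrophage arrays 1 and 2. For NKT baseline arrays 1 and 2 NK1.1 alone is named as the sorting marker. Preparation is worded differently for baseline replicates 1 and 2 than for replicate 3 and the interferon arrays. The interferon arrays of NKT, NK and CD4+ T cells carry a further wording that no baseline array shares, and neutrophils have no replicate 3. Preparation and treatment therefore cannot be told apart in neutrophils, NKT cells, NK cells and CD4+ T cells.

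TRIM proteins are built from a RING domain, B-boxes and a coiled coil, and many of them are E3 ubiquitin ligases, enzymes that choose the protein to which ubiquitin is attached. Type I interferon signals through its receptor to transcription factors, STAT2 and IRF9 among them, which bind interferon-stimulated response elements in the promoters of their targets, and a number of TRIM genes are among these targets. Trim25 and Trim14 act in the sensing of viral RNA and DNA, Trim21 binds antibody-coated particles in the cytosol, Trim26 and Trim30a act on the signalling that follows sensing, and Trim34a belongs to the cluster that holds the retrovirus-restricting family members.

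On GRCm38.p6 (RefSeq), Trim21 lies at chr7:102557920-102565482, Trim30a at chr7:104409025-104465193 and Trim34a at chr7:104244448-104262244. Trim14 lies at chr4:46505072-46536150, Trim25 at chr11:88999403-89020294 and Trim26 at chr17:36837123-36859398. The promoter windows below run from 250 bases before to 50 bases after the annotated start and are read 5′ to 3′ along the gene. They are shown because the response element, searched on both strands as GAAA, any 2 bases and GAAA again, stood in 4 of the 5 members with a window. Capitals mark the matches. RefSeq listed 2 starts for Trim30a, of which the first is shown.
Trim21 promoter window, chr7:102565433-102565732, reverse strand: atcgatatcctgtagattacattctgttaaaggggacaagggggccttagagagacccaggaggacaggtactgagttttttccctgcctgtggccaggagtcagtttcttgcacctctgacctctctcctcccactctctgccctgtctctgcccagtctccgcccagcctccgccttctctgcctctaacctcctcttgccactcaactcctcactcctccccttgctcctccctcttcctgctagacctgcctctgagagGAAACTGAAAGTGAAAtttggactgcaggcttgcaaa
Trim34a promoter window, chr7:104244207-104244506, forward strand: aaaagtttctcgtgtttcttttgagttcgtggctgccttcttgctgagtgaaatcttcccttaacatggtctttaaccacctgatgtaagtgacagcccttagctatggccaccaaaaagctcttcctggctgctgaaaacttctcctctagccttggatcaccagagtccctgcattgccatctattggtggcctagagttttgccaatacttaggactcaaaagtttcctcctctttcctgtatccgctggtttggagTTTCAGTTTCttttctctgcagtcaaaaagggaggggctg
Trim30a promoter window, chr7:104465144-104465443, reverse strand: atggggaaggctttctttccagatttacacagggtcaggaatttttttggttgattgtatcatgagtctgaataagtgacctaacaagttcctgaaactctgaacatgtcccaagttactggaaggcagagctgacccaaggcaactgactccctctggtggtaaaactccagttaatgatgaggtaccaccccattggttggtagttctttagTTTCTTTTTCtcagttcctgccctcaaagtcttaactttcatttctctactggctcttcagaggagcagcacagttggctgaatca
Trim26 promoter window, chr17:36836896-36837195, forward strand: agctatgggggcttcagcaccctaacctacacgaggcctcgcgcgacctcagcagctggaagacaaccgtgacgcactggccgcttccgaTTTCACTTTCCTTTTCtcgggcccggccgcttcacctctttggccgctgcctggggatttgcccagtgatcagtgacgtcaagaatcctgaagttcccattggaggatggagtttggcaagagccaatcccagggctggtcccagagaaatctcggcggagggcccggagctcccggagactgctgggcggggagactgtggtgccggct
Trim25 promoter window, chr11:88999153-88999452, forward strand: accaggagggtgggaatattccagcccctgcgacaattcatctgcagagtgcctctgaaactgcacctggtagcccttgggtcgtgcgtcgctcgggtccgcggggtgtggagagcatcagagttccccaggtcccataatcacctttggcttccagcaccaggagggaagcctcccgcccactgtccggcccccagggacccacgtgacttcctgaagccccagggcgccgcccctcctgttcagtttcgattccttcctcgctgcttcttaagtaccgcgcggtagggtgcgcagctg

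The element was present in 5 of the 6 windows of these members (83.3%), both starts of Trim30a included. Trim30a is thus counted for each of its starts, and Trim14 had no window. The members were chosen with earlier interferon results known, so the shares below describe them and are not a test. It was present in 1131 of all 32851 windows of this length (3.44%) and in 5 of 61 windows of other Trim genes (8.2%). Among genes called raised by interferon on average it stood in 60 of 246 windows (24.4%), and among measured genes not called raised it stood in 561 of 18773 (2.99%). In Trim21 a pair of overlapping matches ran from position 14 to 29 after the start, on the strand of the gene. In Trim26 a pair of overlapping matches ran from position -160 to -145, before the start, on the opposite strand. Trim34a had 1 match at positions 11 to 20. Trim30a had 1 match at -36 to -27 from its first start and 1 at 3 to 12 from its second. The Trim25 window held no match to these letters. The gamma-activated site, searched as TTC, any 3 bases and GAA, stood in 0 of the 6 windows of the members and in 2726 of all windows (8.3%). These matches describe letters and say nothing of binding.

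**Figure D1:**
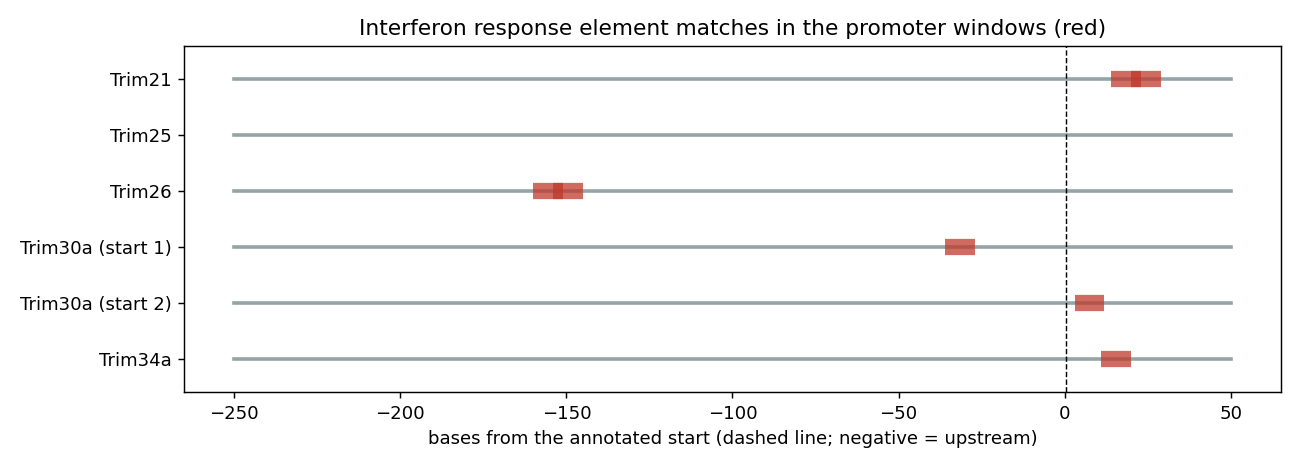
Matches to the response element (red bars) along each promoter window (grey line), in bases from the annotated start, which the dashed line marks. Matches stood between -36 and 29 in Trim21, Trim30a and Trim34a, at -160 to -145 in Trim26, and nowhere in the window of Trim25.

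All 6 members were higher after interferon in all 9 cell types. In each of the 54 combinations of member and cell type, every interferon array stood above every baseline array, which happened in all 9 types for 227 of 19752 genes (1.15%). A gene was called raised in a cell type when its Benjamini-Hochberg adjusted p in the limma fit was below 0.05 and interferon exceeded baseline by 1 or more in log2, a doubling. By that rule Trim21, Trim25 and Trim30a rose in all 9 cell types, Trim14 in 6, Trim34a in 4 and Trim26 in 2. Genes called raised in all 9 made up 0.456% of the genes tested. The mean change over the 9 cell types, interferon minus baseline, was called for 5 of the 6, against 1.26% of all genes called raised. The median mean change of the 6 was 1.41, against -0.01 over all genes. The members were chosen with earlier results of these data known, so these shares describe them and are not a test. In bulk samples of sorted cells, a change in the mix of cells and a change in RNA per cell cannot be told apart.

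**Figure D2:**
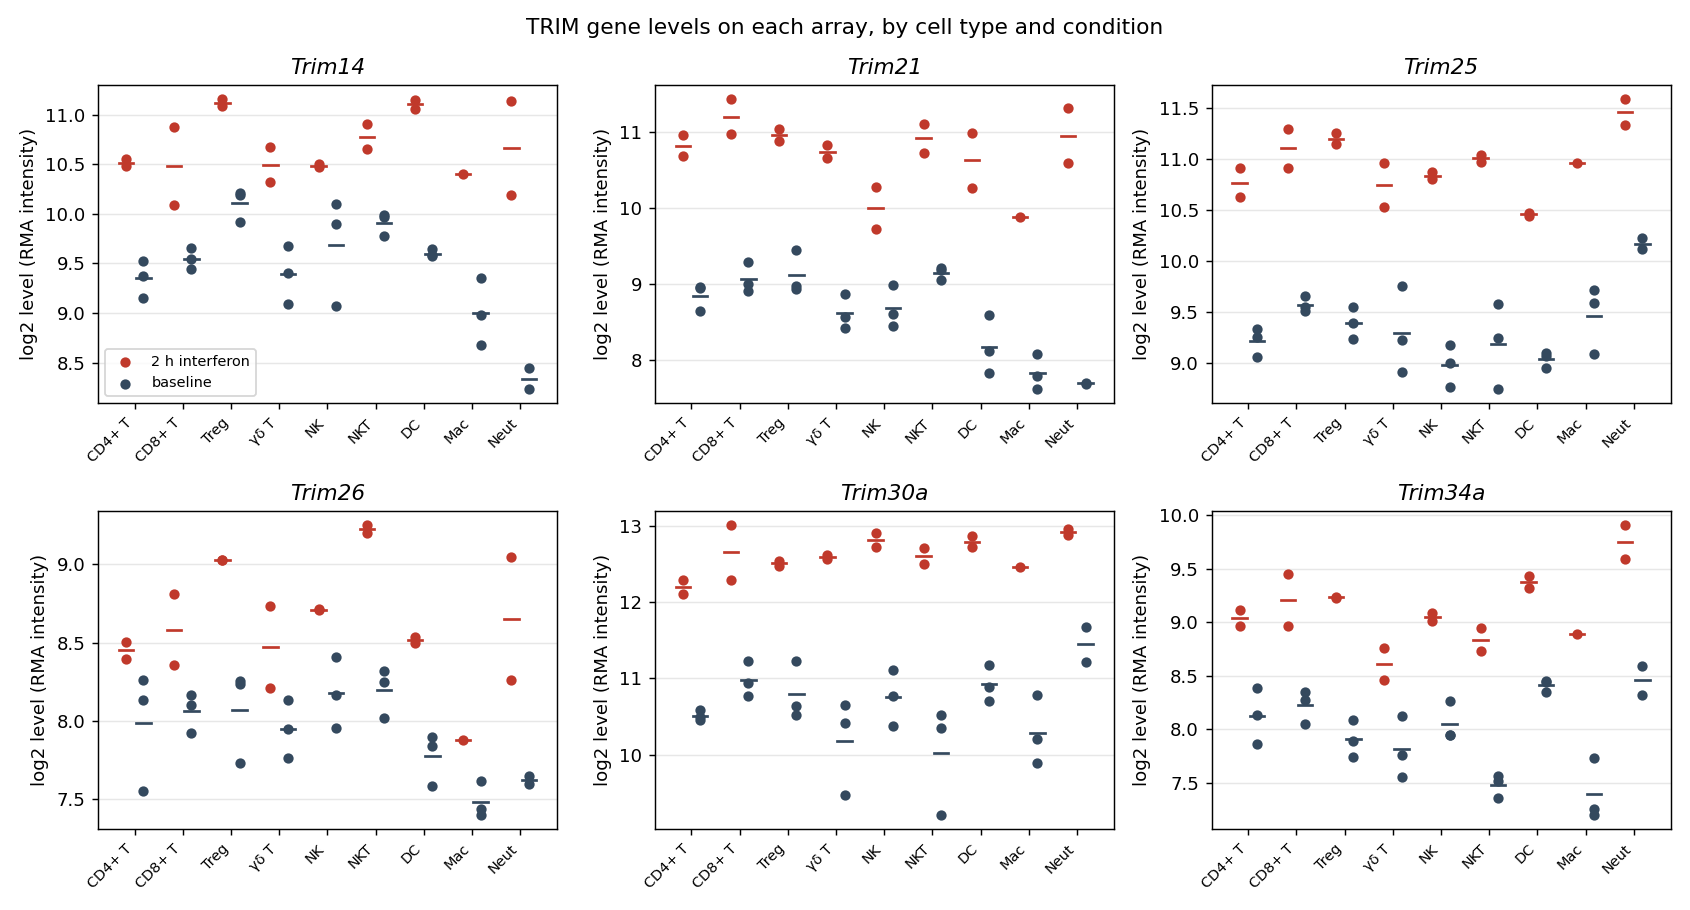
Log2 level of each member on each array (points) in 9 cell types, with interferon arrays (red) to the left of baseline arrays (dark), and group means as short lines. In all 6 panels and in every cell type, the red points stand above the dark ones.

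Trim25 is the ligase that attaches ubiquitin chains to the RNA sensor RIG-I and can also attach the ubiquitin-like protein ISG15. In NK cells its log2 levels were 10.80 and 10.87 after interferon, against 8.998, 8.76 and 9.18 at baseline. In regulatory T cells they were 11.14 and 11.25 after interferon, against 9.23, 9.39 and 9.55 at baseline. In neutrophils they were 11.33 and 11.59 after interferon, against 10.12 and 10.22 at baseline. The groups were apart in all 3, and neutrophils, which had the highest level at baseline, had the smallest change. The change ran from 1.29 (SE 0.231, adjusted p = 0.000145) in neutrophils to 1.85 (SE 0.211, adjusted p = 1.22e-07) in NK cells, the narrowest span of the 6 members. Its mean over cell types was 1.58 (SE 0.0734), a 2.99-fold rise that ranked 117 of 19752 genes. The F test for a difference of the change among cell types gave an adjusted p of 0.907.

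Of the genes of the RNA-sensing pathway on which Trim25 acts, 11 of 12 listed were measured and 4 rose in all 9 cell types. These were the sensors Ddx58, which encodes RIG-I (mean change 2.01, SE 0.1004), Ifih1 (3.18, SE 0.0985) and Dhx58 (2.68, SE 0.0807), and the transcription factor Irf7 (2.55, SE 0.0833). Tbk1, the kinase downstream of the sensors, rose in NKT cells only by the call (1.43) and had a mean change of 0.59. The other 6 were called in no cell type, among them Mavs, the adaptor of RIG-I, with a mean change of -0.38, and Rnf135, another ligase for RIG-I, with 0.37. Calls were rare over all genes as well, with 0.901% (CD4+ T cells) to 2.89% (NKT cells) called raised in a given cell type. The median of the 11 was 0.37, against -0.01 over all genes. Of the ISG15 conjugation genes, 5 of 6 listed were measured. Usp18, the protease that removes ISG15 (3.75, SE 0.0893), Herc6, its ligase in the mouse (3.17, SE 0.117), and Ube2l6, its conjugating enzyme (2.25, SE 0.113), rose in all 9 cell types, and Uba7, its activating enzyme, rose in 4 (mean 1.05). Arih1 was called in none (mean 0.14), and the median of the 5 was 2.25.

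Trim14 has no RING domain and acts as an adaptor, at MAVS in RNA sensing and at the DNA sensor cGAS, which it shields from degradation through the deubiquitinase Usp14. In neutrophils its log2 levels were 10.19 and 11.13 after interferon, against 8.23 and 8.44 at baseline. In dendritic cells they were 11.15 and 11.06 after interferon, against 9.65, 9.58 and 9.57 at baseline. In NK cells they were 10.47 and 10.50 after interferon, against 9.90, 9.07 and 10.10 at baseline. The gap between the groups was wide in neutrophils and narrow in NK cells, where the interferon arrays stood above the highest baseline array by 0.37. The change was 2.33 (SE 0.270, adjusted p = 9.5e-08) in neutrophils and 1.504 (SE 0.247, adjusted p = 4.82e-05) in dendritic cells. It was called as well in macrophages (1.40), in CD4+ (1.16), gamma-delta (1.10) and regulatory T cells (1.02). It was 0.93 in CD8+ T cells (adjusted p = 0.0297), 0.87 in NKT cells (adjusted p = 0.0236) and 0.79 in NK cells (adjusted p = 0.0674), below the size set for a call. The mean over cell types was 1.23 (SE 0.0859), a 2.35-fold rise of rank 180. The call in CD4+ T cells was lost without either interferon array (1.20 and 1.13), and that in gamma-delta T cells without the first interferon array (0.93) or the first baseline array (0.95). In regulatory T cells it was lost without either interferon array (1.05 and 0.98) or the third baseline array (0.92), with a term for the preparation wording (0.97, adjusted p = 0.0548) and with array weights (0.95). The gamma-delta call was also lost with array weights (0.98) and with that cell type fitted alone (adjusted p = 0.0937). In CD8+ T cells a call appeared without the first interferon array (1.32), and in NK cells without the third baseline array (1.001).

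The DNA-sensing list on which Trim14 acts had 6 genes, all measured. Cgas rose in 6 cell types (mean change 1.38, SE 0.0789), with 2.83 in neutrophils and 0.29 in CD4+ T cells. Trex1, the nuclease that removes cytosolic DNA, rose in 2 (mean 0.79), with 2.68 in neutrophils and 1.23 in macrophages, and Tbk1 rose in 1. Sting1, the adaptor downstream of cGAS, had a mean change of 0.05, Usp14 of -0.06 and Irf3 of -0.23, and none of these 3 was called in any cell type. Over all genes, 0.901% (CD4+ T cells) to 2.89% (NKT cells) were called raised in a given cell type. The median of the 6 was 0.32.

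Trim21 is a cytosolic receptor for antibodies, which marks antibody-bound virus for the proteasome. Its log2 levels in neutrophils were 10.59 and 11.31 after interferon, against 7.69 and 7.70 at baseline. In dendritic cells they were 10.26 and 10.98 after interferon, against 8.12, 7.83 and 8.59 at baseline. In NK cells they were 10.28 and 9.72 after interferon, against 8.61, 8.45 and 8.98 at baseline. Neutrophils thus had the lowest level of any cell type at baseline and the third highest mean after interferon. In CD8+ T cells Trim21 had 10.97 and 11.42 after interferon, against 8.91, 8.997 and 9.29 at baseline. The single macrophage array after interferon was at 9.88, against 7.62, 7.80 and 8.08 at baseline. The change was 3.25 (SE 0.262, adjusted p = 3.02e-11) in neutrophils, a 9.52-fold rise, 2.44 in dendritic cells, 2.13 in CD8+ T cells and 2.05 in macrophages. It was 1.32 (SE 0.239, adjusted p = 0.000391) in NK cells, the smallest of the 9. Without the first interferon array of NK cells it was 1.04 (adjusted p = 0.062). The mean over cell types was 2.10 (SE 0.0831), a 4.28-fold rise that ranked 83 of 19752 and was the highest of the 6 members.

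Of the 7 genes listed for antibody handling beside Trim21, all measured, 5 are proteasome or ubiquitin factors. Ube2v2 was called in gamma-delta T cells (1.09, mean 0.39), and Vcp (0.01), Ube2n (-0.01), Ube2w (0.06) and Psmd14 (0.17) were called in none. Over all genes, 0.901% (CD4+ T cells) to 2.89% (NKT cells) were called raised in a given cell type. The 2 surface Fc receptors rose, Fcgr1 in 4 cell types (4.06 in neutrophils, 3.27 in dendritic cells, 2.80 in macrophages and 2.38 in NKT cells) and Fcgr4 in 3. Fcgr1 had changes of -0.06 to 0.72 in the 5 remaining types. In the NKT arrays the summed level of 6 macrophage markers was 11.06 to 12.20 after interferon, against 9.89 to 11.64 at baseline. The part of such cells in the NKT values of the Fc receptors was not tested.

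Trim26 acts on the signalling of TBK1 and IRF3 and had the smallest mean change of the 6. In NKT cells its log2 levels were 9.20 and 9.25 after interferon, against 8.02, 8.25 and 8.32 at baseline. In neutrophils they were 8.26 and 9.05 after interferon, against 7.65 and 7.60 at baseline. In gamma-delta T cells they were 8.74 and 8.21 after interferon, against 7.76, 7.95 and 8.13 at baseline. The groups did not overlap in any of these, but in gamma-delta T cells the nearest arrays were 0.074 apart and the neutrophil pair was 0.79 apart. The change was 1.03 in NKT cells (SE 0.208, adjusted p = 0.00101) and 1.03 in neutrophils (SE 0.228, adjusted p = 0.00177), the only calls. It was 0.95 in regulatory T cells (adjusted p = 0.00609) and 0.74 in dendritic cells (adjusted p = 0.0217), below the size set for a call. In the remaining 5 types it lay between 0.39 and 0.53 with adjusted p from 0.157 to 0.788. The mean was 0.69 (SE 0.0725, adjusted p = 2.76e-09), a 1.61-fold difference of rank 402 that was below the size set for a call. The neutrophil call was lost without the second interferon array (0.64, adjusted p = 0.0877) and with that cell type fitted alone (adjusted p = 0.0687). The NKT call was lost without the first baseline array (0.94), with quantile normalisation (0.949) and with array weights (0.98). A call appeared in regulatory T cells without the first or the second baseline array (1.04 and 1.03).

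Trim30a, a mouse gene whose product restrains NF-kB signalling by removing TAB2 and TAB3, had large changes throughout. In NKT cells its log2 levels were 12.50 and 12.71 after interferon, against 9.22, 10.35 and 10.52 at baseline. In gamma-delta T cells they were 12.62 and 12.56 after interferon, against 9.47, 10.65 and 10.41 at baseline. In neutrophils they were 12.87 and 12.96 after interferon, against 11.22 and 11.68 at baseline. One baseline array stood well below the others in both NKT and gamma-delta T cells, and in neutrophils, with the highest baseline, the nearest arrays were 1.20 apart. The change was 2.58 (SE 0.309, adjusted p = 2.24e-07) in NKT cells, 2.41 in gamma-delta T cells (SE 0.309, adjusted p = 1.19e-06) and 1.47 in neutrophils (SE 0.339, adjusted p = 0.0027). In the other 6 types it lay between 1.67 and 2.16. The mean was 1.96 (SE 0.108), a 3.89-fold rise of rank 91, and the F test among cell types gave an adjusted p of 0.713. The calls were lost in CD8+ T cells without the second interferon array (1.31, adjusted p = 0.0888) and in neutrophils without the first baseline array (1.24, adjusted p = 0.0738). In the NKT arrays the summed level of 6 macrophage markers was 11.06 to 12.20 (log2) after interferon, against 9.89 to 11.64 at baseline, and 1 of the 6, Mertk, was raised. The summed level of 7 neutrophil markers there was 9.23 to 9.73 after interferon, against 10.71 to 11.01 at baseline, and 1 of the 7 was lowered. In the gamma-delta arrays 1 of 6 NK cell markers was raised and 2 were lowered, with Klrb1c at 7.09 after interferon, against 9.02 at baseline, and 1 of 5 T cell markers was lowered. The part of these cells in the NKT and gamma-delta changes was not tested.

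Of the NF-kB genes listed around Trim30a, 10 of 11 were measured and 8 were called in no cell type, with a median mean change of 0.06. Of all genes, 0.901% (CD4+ T cells) to 2.89% (NKT cells) were called raised in a given cell type. The share called in no cell type was not computed, so the 8 are not read as a trait of this list. Tab2 and Tab3, the products of which Trim30a removes, had mean changes of 0.03 and 0.04, Map3k7, which encodes the kinase TAK1, had -0.16 and Rela had -0.40. Tlr4, the endotoxin receptor, rose in 2 cell types (1.84 in neutrophils and 1.18 in NKT cells), and Myd88, its adaptor, rose in 2 (1.31 in NK cells and 1.13 in dendritic cells). The NKT arrays also carried the macrophage markers given above, and the part of such cells in the NKT value of Tlr4 was not tested.

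Trim34a is a mouse relative of human TRIM34, which acts with TRIM5 against retroviral capsids. In macrophages its log2 level was 8.89 after interferon, against 7.73, 7.20 and 7.25 at baseline. In NKT cells its levels were 8.95 and 8.73 after interferon, against 7.52, 7.36 and 7.56 at baseline. In gamma-delta T cells they were 8.76 and 8.46 after interferon, against 7.56, 8.12 and 7.76 at baseline. The gap was wide in NKT cells and macrophages and 0.33 in gamma-delta T cells. The change was called in macrophages (1.496, SE 0.232, adjusted p = 4.54e-05), NKT cells (1.36, SE 0.184, adjusted p = 2.17e-06), regulatory T cells (1.32) and neutrophils (1.29). In NK cells (0.99), CD8+ T cells (0.98), dendritic cells (0.96), CD4+ T cells (0.91) and gamma-delta T cells (0.79) the adjusted p was at most 0.00551 and the size fell short of 1. A call appeared without the first interferon array of CD8+ T cells (1.23), NK cells (1.03) or dendritic cells (1.01), without the first baseline array of NK cells (1.10) or CD4+ T cells (1.04), and without the first or the third baseline array of CD8+ T cells (1.005 and 1.05). With quantile normalisation calls appeared in NK cells (1.03) and in CD8+ (1.07) and CD4+ T cells (1.08). The mean was 1.12 (SE 0.0639), a 2.18-fold rise of rank 207.

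**Figure D3:**
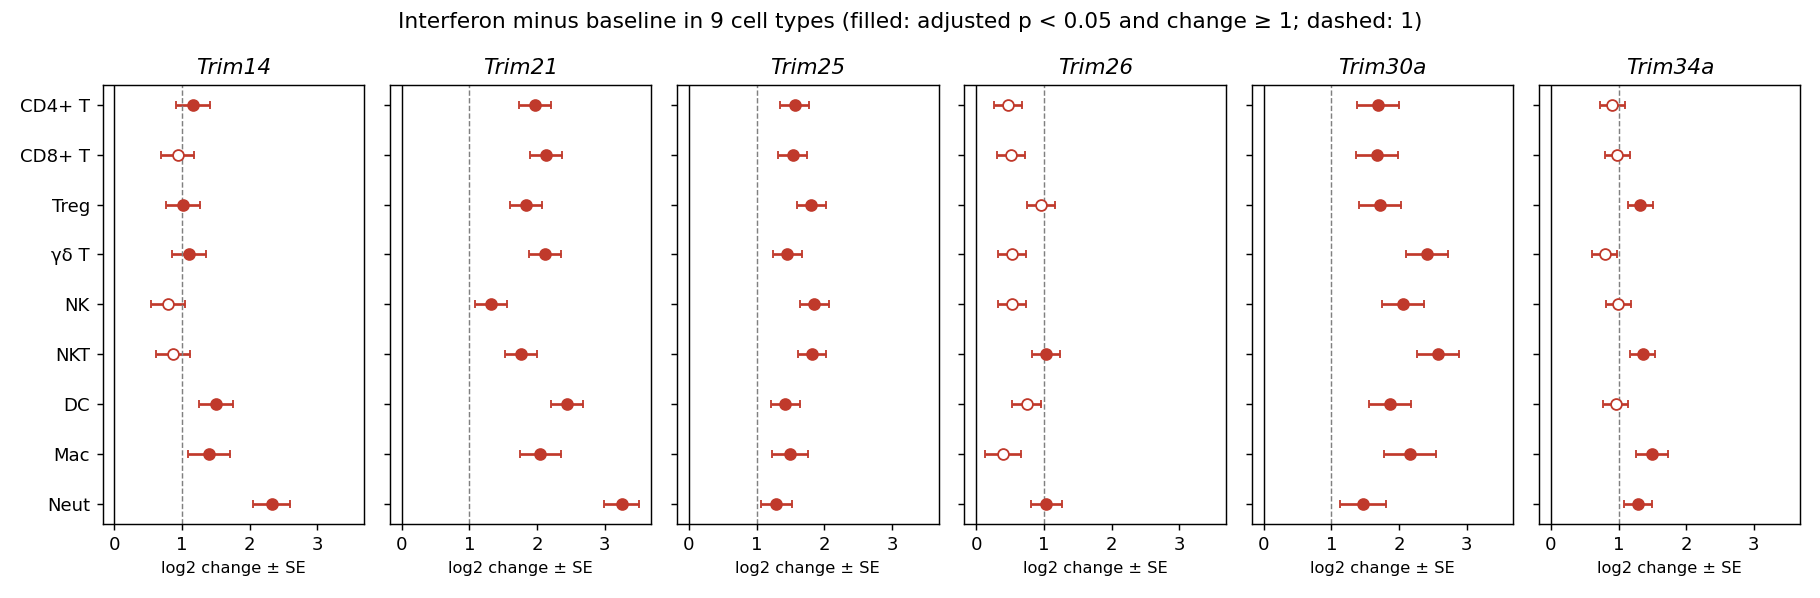
Log2 change, interferon minus baseline, with its standard error for each member (panels) in each cell type (rows). Filled points are the calls, 39 of 54, and the dashed line marks a change of 1; Trim21 and Trim14 lie farthest right in neutrophils.

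By cell type, 6 members were called in neutrophils, 5 in NKT cells, macrophages and regulatory T cells, 4 in dendritic cells and in CD4+ and gamma-delta T cells, and 3 in NK cells and CD8+ T cells. The share of all genes called raised was 2.43% in neutrophils, 2.89% in NKT cells, 1.35% in macrophages and 1.11% in regulatory T cells. It was 2.34% in dendritic cells, 1.53% in the gamma-delta type, 0.901% in CD4+ T cells, 1.25% in NK cells and 1% in CD8+ T cells. Trim21, Trim25 and Trim30a made up the 3 in CD8+ T cells and in NK cells. No member was lowered in any cell type, as 4.62% of all genes were in at least 1.

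Only Trim21 differed in its change among cell types by the F test over all 9 (adjusted p = 0.0296), and 4.16% of all genes passed this test. Without any 1 of 5 arrays it did not pass (adjusted p from 0.0575 to 0.166), which were both neutrophil baseline arrays, the second neutrophil and the second NK interferon array and the third NK baseline array, nor with baseline replicate 3 only (adjusted p = 1). The adjusted p was 0.127 for Trim14 (0.0198 with quantile normalisation) and between 0.633 and 0.907 for Trim25, Trim26, Trim30a and Trim34a. Set against the mean change of the other 8 types, 2 of the 54 combinations were called, against 0.51% over all genes and types, and both were in neutrophils, where 2.35% of all genes were called either way. There the Trim21 change was larger by 1.30 (SE 0.276, adjusted p = 0.00328) and the Trim14 change by 1.23 (SE 0.285, adjusted p = 0.00768). In neutrophils both members combined the lowest baseline mean of any cell type, 7.70 for Trim21 and 8.34 for Trim14, with interferon means of 10.95 and 10.66. Without the second interferon array of neutrophils the differences were 0.94 for Trim21 (adjusted p = 0.0695) and 0.76 for Trim14 (adjusted p = 0.137), and without the first baseline array that of Trim14 was 1.12 (adjusted p = 0.11). The F test of Trim21 gave an adjusted p of 0.623 with neutrophils left out, an alternative chosen after seeing the data.

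Markers of other cells moved with the neutrophil groups. The summed level of 7 B cell markers was 9.06 to 9.21 (log2) on the interferon arrays of neutrophils, against 11.28 to 12.09 on the baseline arrays, and 5 of the 7 were lowered. The summed level of 6 dendritic cell markers was 9.72 to 10.36 after interferon, against 12.12 to 12.71 at baseline, and 3 of the 6 were lowered. The neutrophil markers themselves were at 15.63 to 15.65 after interferon, against 15.86 to 15.97 at baseline. The part of the other cells in the neutrophil values of the members was not tested.

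The 3 myeloid types (dendritic cells, macrophages and neutrophils) had a mean Trim14 change of 1.74, against 0.98 in the 6 lymphocyte types, a difference of 0.76 (SE 0.189, adjusted p = 0.0145). For Trim21 the means were 2.58 in myeloid types and 1.86 in lymphocytes, a difference of 0.73 (SE 0.183, adjusted p = 0.017). An adjusted p below 0.05 was reached by 3.14% of all genes in this comparison, and both differences were below 1, so neither was called, as 0.775% of all genes were. Without neutrophils they were 0.47 (adjusted p = 0.478) for Trim14 and 0.39 (adjusted p = 0.723) for Trim21. For Trim25 (-0.27), Trim30a (-0.19), Trim34a (0.19) and Trim26 (0.05) the adjusted p lay between 0.636 and 0.987, and the sign for Trim30a and Trim26 turned under other settings.

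At baseline every member differed among cell types by the F test (adjusted p from 4.43e-07 for Trim21 to 0.0143 for Trim26), as did 56.4% of all genes. Trim14 had its highest baseline mean in regulatory T cells, 10.11 ± 0.17 (SD, n = 3), followed by NKT cells (9.91 ± 0.12), NK cells (9.69 ± 0.55), dendritic cells (9.60 ± 0.04), CD8+ T cells (9.55 ± 0.11), gamma-delta T cells (9.39 ± 0.30), CD4+ T cells (9.35 ± 0.19), macrophages (9.004 ± 0.33) and neutrophils (8.34 ± 0.15, n = 2). Trim21 ran from NKT cells (9.15 ± 0.09) through regulatory T cells (9.12 ± 0.29), CD8+ T cells (9.07 ± 0.20), CD4+ T cells (8.85 ± 0.18), NK cells (8.68 ± 0.28), T cells of the gamma-delta type (8.62 ± 0.23), dendritic cells (8.18 ± 0.38) and macrophages (7.84 ± 0.23) to neutrophils (7.70 ± 0.01). Trim26 ran from NKT cells (8.20 ± 0.16) and NK cells (8.18 ± 0.23) through regulatory T cells (8.07 ± 0.30), CD8+ T cells (8.07 ± 0.13), CD4+ T cells (7.99 ± 0.38), gamma-delta T cells (7.95 ± 0.19) and dendritic cells (7.78 ± 0.16) to neutrophils (7.62 ± 0.04) and macrophages (7.49 ± 0.12). Neutrophils and macrophages were the lowest 2 types for these 3 members, and dendritic cells stood below all lymphocyte types for Trim21 and Trim26 but not for Trim14.

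The other 3 members had neutrophils at the top. Trim25 ran from neutrophils (10.17 ± 0.07) through CD8+ T cells (9.57 ± 0.08), macrophages (9.46 ± 0.33), regulatory T cells (9.39 ± 0.16), T cells of the gamma-delta type (9.30 ± 0.43), CD4+ T cells (9.21 ± 0.14), NKT cells (9.19 ± 0.42) and dendritic cells (9.04 ± 0.08) to NK cells (8.98 ± 0.21). Trim30a ran from neutrophils (11.45 ± 0.32) through CD8+ T cells (10.98 ± 0.24), dendritic cells (10.92 ± 0.24), regulatory T cells (10.79 ± 0.38), NK cells (10.75 ± 0.36), CD4+ T cells (10.51 ± 0.07), macrophages (10.29 ± 0.45) and gamma-delta T cells (10.18 ± 0.62) to NKT cells (10.03 ± 0.71). Trim34a ran from neutrophils (8.46 ± 0.19) and dendritic cells (8.42 ± 0.06) through CD8+ T cells (8.22 ± 0.15), CD4+ T cells (8.13 ± 0.26), NK cells (8.05 ± 0.18), regulatory T cells (7.91 ± 0.17), T cells of the gamma-delta type (7.81 ± 0.29) and NKT cells (7.48 ± 0.10) to macrophages (7.40 ± 0.29). Of the 48 pairs of neighbours in these 6 orders, 2 differed at an adjusted p below 0.05. Trim14 was higher in macrophages than in neutrophils by 0.67 (SE 0.247, adjusted p = 0.0363), and Trim25 was higher in neutrophils than in CD8+ T cells by 0.60 (SE 0.211, adjusted p = 0.0233). Without either neutrophil baseline array 0 neighbours differed, and without the first or the second CD8+ baseline array, or the second or the third macrophage baseline array, 1 did.

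Over all 36 pairs of cell types, 16 differed for Trim21, 15 for Trim34a, 12 for Trim14, 10 for Trim25, 8 for Trim30a and 7 for Trim26, against 21.6% of all pairs over all genes. Of the 16 pairs for Trim21, all set a lymphocyte type above a myeloid type, from 0.67 (CD4+ T cells above dendritic cells) to 1.45 (NKT cells above neutrophils). Of the 10 for Trim25, 8 set neutrophils above each of the other types, by 0.60 to 1.19. The widest difference was 1.77, for Trim14 between regulatory T cells and neutrophils (SE 0.247, adjusted p = 3.47e-07). After interferon the span of the group means was 0.72 for Trim14, against 1.77 at baseline, and 0.72 for Trim30a, against 1.42 at baseline. It was 1.35 for Trim26 after interferon, against 0.71 at baseline. The spans were closer for Trim21 (1.31 after interferon, 1.45 at baseline), Trim25 (1.0003 and 1.19) and Trim34a (1.14 and 1.06). The lowest interferon values of Trim14 (10.40), Trim21 (9.88) and Trim26 (7.88) were those of the single macrophage array, so these spans rest on 1 array at that end. The differences between the spans were not tested.

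Across the 9 baseline means the members fell into patterns that a description can give, since the means come from the same arrays. Trim21 correlated with Trim26 (Pearson r = 0.916) and with Trim14 (0.832), Trim30a with Trim34a (0.857), and Trim14 inversely with Trim25 (-0.743). Over all 18 group means, which carry the interferon change, all 15 pairs correlated between 0.659 and 0.935. Among all other symbols, the 3 most similar over the 18 means were Dtx3l (0.972), Zbp1 (0.969) and Daxx (0.967) for Trim21, Rtp4 (0.978), Cmpk2 (0.975) and H2-T24 (0.961) for Trim25, and Samd9l (0.969), Parp14 (0.968) and Parp9 (0.967) for Trim30a. They were Helz2 (0.922), Slc25a22 (0.919) and Trim21 (0.917) for Trim14, Plekha2 (0.921), Mov10 (0.908) and Rabepk (0.893) for Trim26, and Morc3 (0.955), Samd9l (0.936) and Trim12c (0.934) for Trim34a. Over the 9 baseline means alone, the closest were Kdm2b (0.959), Sting1 (0.954) and Diablo (0.949) for Trim14, Cc2d1b (0.992), Ppp1r13b (0.984) and Yju2 (0.984) for Trim21, and Fcho1 (0.993), H2-Q5 (0.98) and Trp53bp1 (0.976) for Trim26. They were Olfr576 (0.938), Rara (0.937) and Tas2r130 (0.936) for Trim25, Uchl5 (0.98), Brwd3 (0.975) and Ralgapa1 (0.973) for Trim30a, and Nedd4l (0.949), Tcaf3 (0.948) and Itgb1bp2 (0.94) for Trim34a. These are the highest values of a search through all other symbols over only 9 points. Values this high can arise in such a search by chance alone, and no link between the genes was tested.

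The other Trim genes were set beside the members, a contrast that choosing the members with earlier results known may have fixed in part. Of 53 other Trim symbols measured, 47 were called in no cell type in either direction. The share of all genes called in no cell type was not computed, so whether this count is particular to the family cannot be judged. Their median mean change was -0.03, against -0.01 over all genes. Those raised in at least 5 cell types, as 1.05% of all genes were, numbered 4, and all 4 belong to the cluster around Trim30a and Trim34a on chromosome 7. Trim30d rose in 8 cell types (mean 2.44, SE 0.101), with 3.49 in NKT cells and 0.93 in neutrophils, where it was not called. Trim12c rose in 9 (mean 1.86, SE 0.133), Trim12a in 6 (mean 1.16, SE 0.0922) and Trim30e-ps1, named as a pseudogene, in 5 (mean 0.92, SE 0.0623). Trim6, Trim68 and Trim3, the other 3 cluster neighbours measured of 11 listed, had mean changes of 0.21, -0.11 and -0.14 and were called nowhere. Members of this cluster are close copies of each other, so the probe sets of Trim30a, Trim34a and these neighbours may share signal. Outside the cluster, Trim56 rose in regulatory T cells (1.02, mean 0.61), and Trim13 fell in NK cells (-1.37, mean -0.91).

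**Figure D4:**
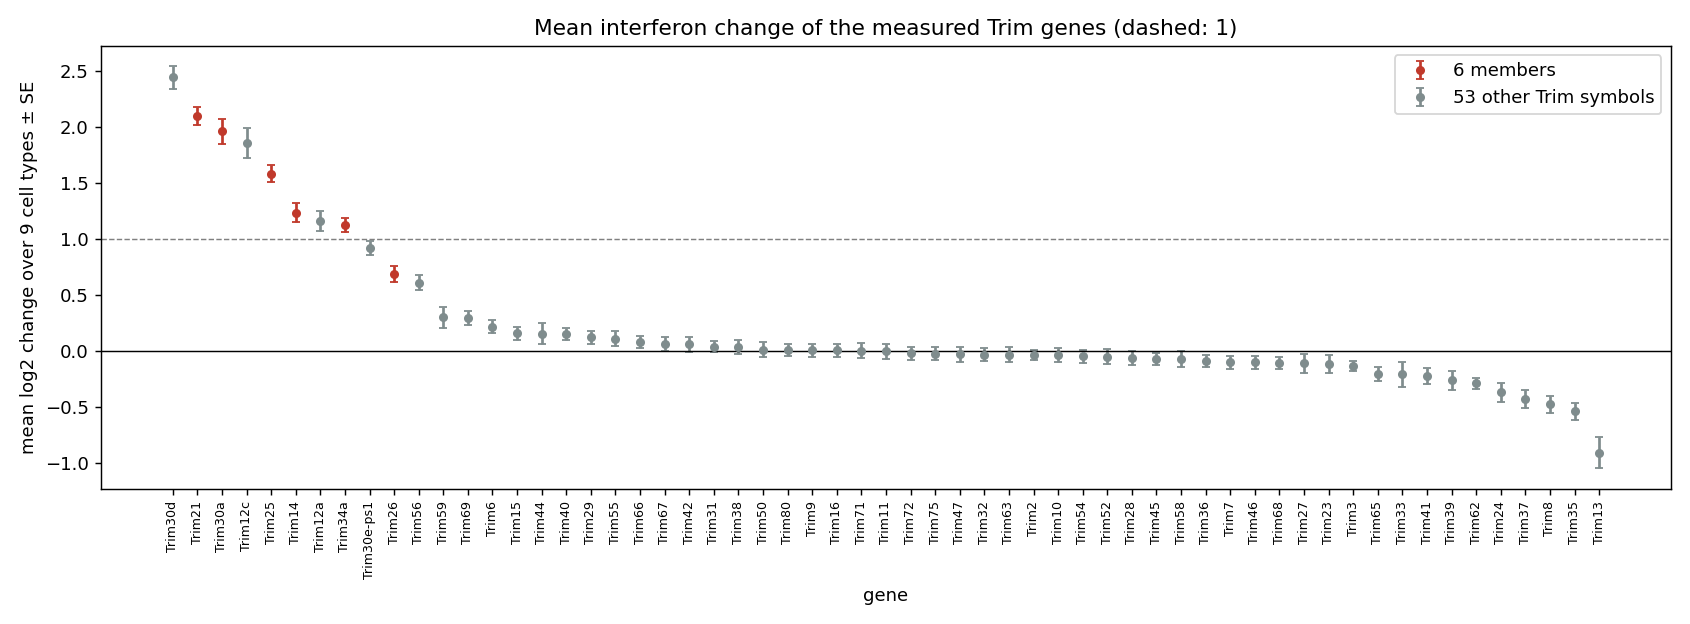
Mean log2 change over the 9 cell types with its standard error for the 6 members (red) and 53 other Trim symbols (grey), ordered by size, with a dashed line at 1. Trim30d, Trim12c and Trim12a are the grey points above the line, and most of the family lies near 0.

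The list of transcription factors that carry the interferon signal gave 5 genes with values. Stat2 (mean 2.46, SE 0.0829) and Irf7 rose in all 9 cell types, Irf1 in 4 (mean 1.14), Irf9 in 3 (mean 0.94) and Irf8 in 1 (mean 0.39). The median of the 5 was 1.14. Stat2 rose by 3.31 in neutrophils, 3.07 in macrophages, 2.28 in dendritic cells and 2.04 in NK cells. The Trim21 changes there were 3.25, 2.05, 2.44 and 1.32 in that order. In CD4+, CD8+, regulatory and gamma-delta T cells and NKT cells, Stat2 rose by 2.12, 2.29, 2.43, 2.36 and 2.24. Trim21 changed there by 1.97, 2.13, 1.84, 2.11 and 1.77 in that order. The F test of Stat2 among cell types gave an adjusted p of 0.217, and a link between these genes was not tested. Of the listed genes, Trim5, Trim30b, Trim30c, Trim34b, Traf3, Isg15 and Nfkb1 were not analysed here.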

How the data were processed

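RNA of sorted immune cells, extracted with TriZol per the labels, was hybridised to a whole-transcript Affymetrix mouse array. The authors deposited linear intensity values, 1 for each probe set of each array. Affymetrix Power Tools and RMA, which corrects background, normalises across arrays and summarises probes, are named in the submitters' processing notes. Neither their versions nor a genome build is given in the sources used here. Values ran from 4.69 to 22042, with array medians from 105 to 125, and were log2-transformed here with no pseudocount. RMA makes levels comparable for 1 probe set across arrays, not between probe sets. Precision is limited by how few arrays each group holds. Among 24922 probe sets, 21425 carried 1 symbol, 1399 several and 2098 none; the brightest probe set per symbol was kept, which left 19752 genes.

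The fit used lmFit and eBayes of limma 3.58.1 (R 4.3.3) over all 18 groups at once (25 residual degrees of freedom), so the variance of the single macrophage interferon array was taken from the other groups. P-values are two-sided and Benjamini-Hochberg adjusted over all genes within a comparison. A call needed an adjusted p below 0.05 and a change of at least 1 on the log2 scale; F tests and baseline pairs needed the adjusted p alone. The fit was tested on simulated data. The members and lists were chosen with earlier results of these data known. Named were the members, other Trim symbols called in at least 5 cell types, list genes, and the 3 symbols with the highest Pearson correlation to each member, leaving out predicted models, loci and small RNAs. The naming of Trim56 and Trim13 followed after their values were seen. Replicate numbers were not used as pairs. Over 8 cell types, same-numbered arrays deviated together at correlations of -0.29 to 0.35, over 0.1 in 3 of 8. With so few arrays per group and no label naming the animals, this check leaves pairing undecided. Alternatives were quantile normalisation, dim genes left out, a preparation term, baseline replicate 3 only, cell types fitted alone, a replicate block, array weights, robust moderation with a variance trend, probe sets averaged per symbol, every array omitted in turn, and neutrophils left out (chosen after seeing the data). Promoter sequences and positions are RefSeq's on GRCm38.p6; 5 of 6 members matched by symbol.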

Additional observations from a re-analysis of the deposited data

Results flagged for a closer look

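A set of 5 results stood out because the interferon change differed between cell types by a test of the difference itself. The change of Trim21 differed among the 9 cell types (F test, limma adjusted p = 0.0296). In neutrophils, minus the mean of the other 8 types, the change was larger by 1.30 for Trim21 and by 1.23 for Trim14 on the log2 scale (limma adjusted p = 0.00328 and 0.00768), and both neutrophil interferon arrays stood above both baseline arrays. In myeloid types minus lymphocytes the change was larger by 0.76 for Trim14 and by 0.73 for Trim21 (limma adjusted p = 0.0145 and 0.017). All 5 include the 4 neutrophil arrays, and with neutrophils left out, where a value exists, none had an adjusted p below 0.05. The cause was not tested. Groups of 2 or 3 arrays were not tested for an array far from the others.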

How the results depend on the processing

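All 54 changes and all 6 mean changes stayed positive under every alternative run. The mean changes kept their side of the threshold throughout, as 5 calls and the uncalled Trim26. With baseline replicate 3 only (8 residual degrees of freedom, no value for neutrophils), the baseline F test gave adjusted p-values of 0.414 for Trim14, 0.131 for Trim21, 0.157 for Trim25, 0.318 for Trim26 and 0.0707 for Trim30a. Under the same setting the F test of the Trim21 change gave 1, 2 members were called in gamma-delta T cells, and 0 of the 54 differences from the other 8 types and 0 of the 48 neighbour pairs were called; the fit then has fewer samples. With array weights the F test of the change gave 0.000221 for Trim14, 0.0389 for Trim25, 0.0169 for Trim26 and 0.00101 for Trim34a, and 17 neighbour pairs differed. With quantile normalisation it gave 0.0198 for Trim14. With neutrophils left out it gave 0.623 for Trim21. The cause was not tested for these. The myeloid minus lymphocyte difference turned for Trim30a with quantile normalisation (0.020) and for Trim26 with baseline replicate 3 only (-0.18), with neutrophils left out (-0.10) and without the second neutrophil interferon array (-0.080); none was called.

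With each array left out in turn, the F test of the change ranged from 0.0135 to 0.166 for Trim21 and from 0.0193 to 0.478 for Trim14. It rose above 0.05 for Trim21 without either neutrophil baseline array (0.128 and 0.116), the second neutrophil interferon array (0.166), the second NK interferon array (0.0947) or the third NK baseline array (0.0575). It fell below 0.05 for Trim14 without the second NK baseline array (0.0193), the second CD8+ T cell interferon array (0.0495) or the first neutrophil interferon array (0.0254). The members called in CD8+ T cells numbered 2 to 5 (2 without the second interferon array, 5 without the first), the differences from the other 8 types 0 to 2, and the neighbour pairs 0 to 3. The myeloid minus lymphocyte difference of Trim26 ranged from -0.080 to 0.22.

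With the replicate block, for which the check of pairing was undecided, 1 of 39 calls was lost, Trim26 in NKT cells (0.99, adjusted p = 0.00181). The other calls held. The preparation term ended 1 of the 39, Trim14 in regulatory T cells (0.97, adjusted p = 0.0548), and gave 3 more. In neutrophils, NKT cells, NK cells and CD4+ T cells preparation and treatment cannot be told apart. Calls kept or gained in these types under the term are therefore not shown to be independent of preparation. Of single changes, baseline replicate 3 only ended 7 calls, among them Trim21 in NK cells (1.01, adjusted p = 0.152) and Trim14 in CD4+ T cells (1.36, adjusted p = 0.0688). The count of all genes raised in NKT cells, 571, was 244 with baseline replicate 3 only, 259 with that type fitted alone and 875 without the third baseline array. In macrophages it was 266, against 158 with replicate 3 only and 417 with array weights, and in gamma-delta T cells 302, against 188 fitted alone. The median change over all genes lay between -0.10 in NKT cells and 0.08 in neutrophils.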
